A study of Mus musculus with 9 samples.

Results

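Hnf4a and 7 other transcription factors that direct the development of endoderm-derived epithelium were followed on 9 one-color microarrays of mouse lung RNA. The genes were Hnf4a and its relative Hnf4g, the forkhead factors Foxa1, Foxa2 and Foxa3, the lung and thyroid factor Nkx2-1, the zinc finger factor Gata6 and the airway factor Sox2. They are 8 of the 19698 genes that had a symbol and a usable probe, and they were taken by name. They were chosen on the strength of the difference of Hnf4a between these same groups. The differences of the members between the groups are therefore given as a description. Where a member is said to pass the threshold or not, this is no test of that member. They were carried by 9 probes, 2 of them for Foxa2, and all 9 probes passed the filter on low signal. The Hnf4g probe exceeded 1.4 times its local background on 7 of the 9 arrays, and the other 8 probes did so on all 9.

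The study asked how lung tissue responds to a single exposure to radiation. All mice were C57BL/6 males, given as 10 weeks old, and no allele or transgene was named for any of them. The methods give this age for the mice as housed. Tissue was taken at several times after exposure, so the age at collection can differ between arrays. The 4 arrays of the Control group held lung RNA, which came from non-irradiated mice according to the methods. The 5 arrays of the Irradiated group held lung RNA of mice whose left lung had received a single dose, under anesthesia with zoletil and rompun. The study took the exposed area, the unexposed tissue next to it or the whole left lung, and used more than 1 dose and time. The labels give none of these for any array, so whether all 5 arrays held exposed tissue is not known, and the spread among the irradiated arrays includes any such difference. The methods state that RNA of triplicate experiments was pooled before labeling. Each array is therefore a pool, nothing says how far the pools of a group were separate, and p-values measure only the spread between these arrays.

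HNF4A is a nuclear receptor that binds DNA as a dimer and maintains the gene programs of hepatocytes, of intestinal and gastric epithelium and of the kidney proximal tubule. FOXA factors open chromatin in foregut endoderm, GATA6 acts with them in early endoderm and in the distal lung, and SOX2 marks the proximal airway lineage. NKX2-1 specifies the lung and drives surfactant genes, and in mouse lung tumors its loss is known to be accompanied by gastric genes and by HNF4A.

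The region upstream of Hnf4a is shown because this gene has alternative start sites, and binding motifs of several of the other members can be looked for there. RefSeq lists 2 starts for Hnf4a in the mouse build GRCm38.p6, both on the forward strand of chromosome 2 and 40298 bases apart. The 250 bases before each start, at chr2:163506607-163506856 for the upstream start and at chr2:163546905-163547154 for the downstream start, are given from 5′ to 3′, with motif matches in capitals.
Hnf4a, upstream start: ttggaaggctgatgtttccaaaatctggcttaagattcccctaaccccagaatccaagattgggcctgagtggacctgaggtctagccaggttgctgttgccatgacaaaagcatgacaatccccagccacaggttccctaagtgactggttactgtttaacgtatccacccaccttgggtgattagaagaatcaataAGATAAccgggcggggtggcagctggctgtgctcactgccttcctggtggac
Hnf4a, downstream start: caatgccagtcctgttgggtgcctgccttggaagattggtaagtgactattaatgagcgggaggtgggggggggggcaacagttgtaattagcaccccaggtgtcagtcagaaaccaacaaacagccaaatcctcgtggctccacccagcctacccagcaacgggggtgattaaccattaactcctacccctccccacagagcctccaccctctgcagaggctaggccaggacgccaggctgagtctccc
Short motifs were searched for on both strands. FOXA factors were represented by TGTTTAC and by its variant with the letters TGTTTGC, and HNF4 factors by CAAAGTCCA. Factors of the GATA family were represented by AGATAA and by a second form, which reads TGATAA, while CAAGTG stood for NKX2-1. For the SOX family the letters were ATTGTT. The window of the upstream start held 1 match, AGATAA from base −52 to base −47 before the start. That motif was present in 9.99% of the 32817 promoter windows of the same length. The window of the downstream start held no match to any of these motifs. No match to the FOXA, HNF4, NKX2-1 or SOX motifs lay in either window, and these were present in 3.16% (TGTTTAC), 4.3% (TGTTTGC), 0.384% (CAAAGTCCA), 11.6% (CAAGTG) and 9.42% (ATTGTT) of all windows, as TGATAA was in 7.95%. The single Hnf4a probe was designed on a RefSeq transcript, and the array does not report which start was used. A match describes the letters only.

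The arrays differed in ways that the groups do not explain. Between 72.8% and 89.1% of the spots were well above background according to the scanner software, no spot was saturated, and the median local background was 24 to 45.5 intensity units. Over all 39302 probes tested, limma with Benjamini-Hochberg adjustment called 131 probes (0.333%), of which 75 were higher (0.191%) and 56 lower (0.142%), and by gene 82 of 19698 were called (0.416%), 52 of them higher (0.264%) and 30 lower (0.152%) on the irradiated arrays. These counts, and the list counts read against them, come from a fit that ignores likeness between single control and irradiated arrays. With such pairs, formed after the data were seen, as a fixed or a random block, 1099 or 2898 probes passed. The fixed block also leaves out Irradiated 1, which has no pair, so its count is not due to the pairs alone. Counts of list genes past the threshold under these blocks are not given here. Putting each array on its 75th percentile, without quantile normalization, changed the share of higher calls from 57.3% to 41.9%. Control 3 stood apart by its skeletal muscle genes, which lay 3.86 log2 units above the control mean, while the other control arrays were at −1.55 to −1.12. Irradiated 1 stood apart by its cardiac muscle genes, which lay at −4.97, while the other irradiated arrays were at −0.63 to 0.17. Leaving out Control 3 left 5 probes past the threshold and leaving out Irradiated 1 gave 476. The values of the members without each of these arrays are given with them.

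Hnf4a was near the detection limit in control lung and well above background on every irradiated array. Its log2 normalized intensity was 4.36, 4.87, 5.05 and 5.53 on the control arrays (mean 4.95 ± 0.48, SD, n = 4) and 7.14, 8.06, 9.45, 9.70 and 9.80 on the irradiated arrays (mean 8.83 ± 1.18, SD, n = 5). The lowest irradiated array lay 1.61 log2 units above the highest control array, so the groups did not overlap. The mean difference was 3.88 on the log2 scale (SE 0.55), a 14.7-fold higher intensity. Among the members it was the only gene past the threshold of the fit across all probes and the only one whose irradiated arrays all lay above the control arrays, against 0.264% and 3.4% of all genes. With 1 array left out it passed this threshold in 1 of 9 fits, the one without Irradiated 1, and it passed in 7 of the 10 other settings. Foxa1 passed in 2 other settings and Gata6 in 1, all of them with array pairs formed after the data were seen. Since this contrast was known when the gene was chosen, nothing is read from these counts.

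The difference of Hnf4a was visible in the signals before normalization. The background-corrected signal of the spot was 15.6, 31.5, 50.1 and 44.4 intensity units on the control arrays and 95.9, 236, 1090, 838 and 786 on the irradiated arrays. The uncorrected median signal was 2.15 to 3.98 times the local background in the Control group and 4.16 to 37.3 times in the Irradiated group. The spot was called well above background on 3 of 4 control arrays, all but Control 1, and on 5 of 5 irradiated arrays. The control values therefore sit close to the floor of the assay, and the fold depends on how that floor is handled. It was 2.40 on the log2 scale with normexp background correction and an offset of 50, and 2.47 in the normalized table deposited by the authors. The gap between the groups depends on the floor too. In the deposited table the highest control array, Control 4, was at 644 and the lowest irradiated array, Irradiated 1, at 884 intensity units.

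The irradiated arrays were not alike for Hnf4a. Irradiated 1 and Irradiated 2 were at 7.14 and 8.06, and the other three were within 9.45 to 9.80. The range among the irradiated arrays was 2.66 log2 units, a 6.31-fold span of intensity, against 1.17 among the control arrays. Leaving out Irradiated 1 gave a difference of 4.30, leaving out Control 3 gave 3.91, and over all 9 arrays left out in turn the difference was 3.63 to 4.30. Whether the spread follows dose, region or time cannot be told apart here, because the labels do not give them.

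**Figure D1:**
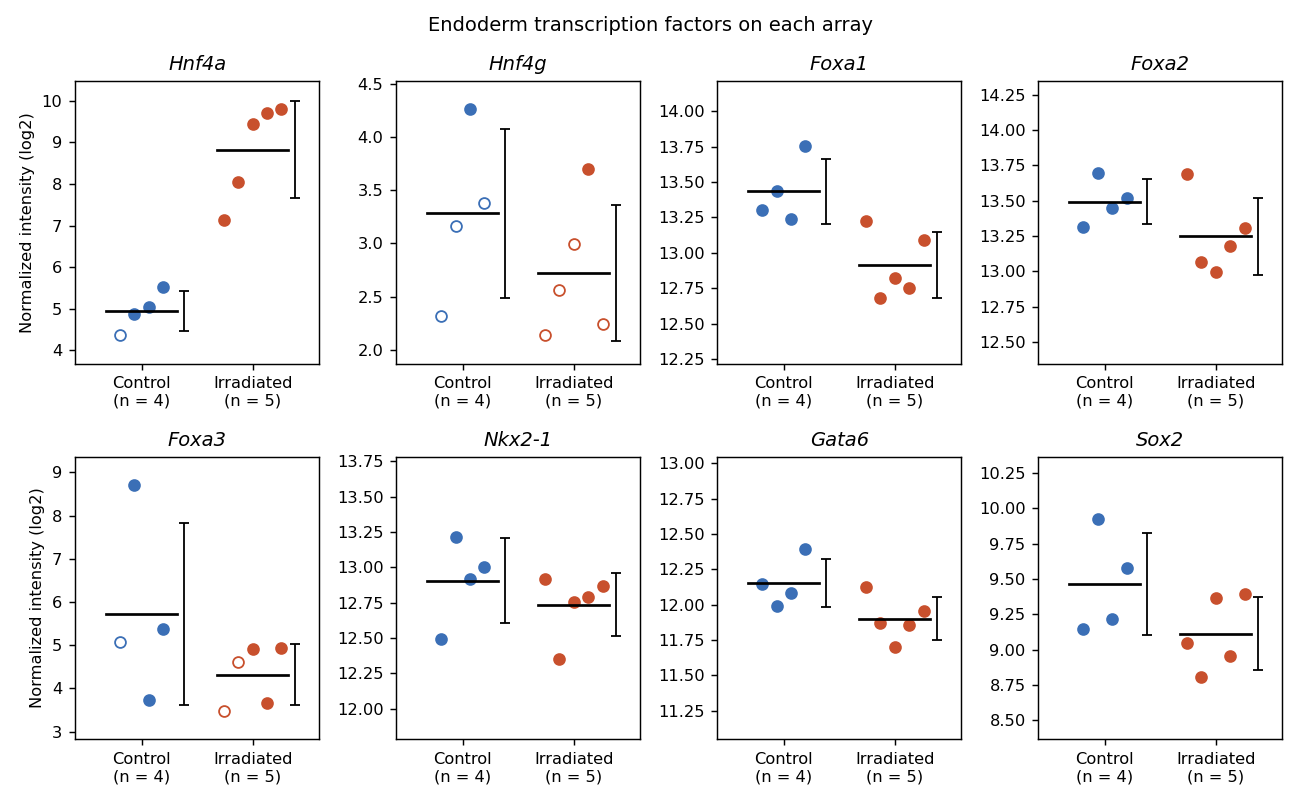
The log2 normalized intensity of each gene on the 4 control arrays (blue) and the 5 irradiated arrays (red), with the group mean (line) and SD (bar). Open points were not well above background, and each panel has its own scale. Hnf4a lies between 4.36 and 5.53 in the Control group and between 7.14 and 9.80 in the Irradiated group, while Foxa1 is the only other panel without overlap, by 0.015 log2 units.

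Hnf4g, the closest relative of Hnf4a and a factor of the intestinal epithelium, was at the limit of detection in both groups. Its log2 normalized intensity was 2.32, 3.16, 4.26 and 3.38 on the control arrays and 2.13, 2.56, 3.00, 3.70 and 2.24 on the irradiated arrays. It was well above background on 1 control array, Control 3, and on 1 irradiated array, Irradiated 4. The groups overlapped, and the difference of −0.56 (SE 0.43) was of the size of its error. Without Control 3 the difference was −0.23. A change of Hnf4g like that of Hnf4a was not seen on its probe, and smaller changes could not be resolved at this signal.

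Foxa1, a pioneer factor of lung, liver and gut endoderm, was bright on every array and somewhat lower on the irradiated ones. Its log2 normalized intensity was 13.31, 13.44, 13.24 and 13.75 on the control arrays (mean 13.43 ± 0.23) and 13.23, 12.68, 12.82, 12.75 and 13.09 on the irradiated arrays (mean 12.91 ± 0.23). Every irradiated array lay below every control array, but only by 0.015 log2 units between Irradiated 1 and Control 3. The difference was −0.52 (SE 0.14), a 1.43-fold lower intensity. Foxa1 was the only member with all irradiated arrays below the control arrays, 1 of 8, against 1.76% of all genes. Without Irradiated 1 the difference was −0.60, and without Control 3 it was −0.58.

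Foxa2, which acts together with Foxa1 in the lung epithelium, was measured by 2 probes that gave like differences. The brighter probe was at 13.32, 13.70, 13.45 and 13.52 on the control arrays and at 13.69, 13.07, 13.00, 13.18 and 13.31 on the irradiated arrays. The other probe was at 11.13, 11.45, 11.32 and 11.37 and at 11.49, 10.97, 10.57, 11.07 and 11.15. Irradiated 1 lay among the control arrays on the brighter probe and above all of them on the dimmer one. The other irradiated arrays lay below all control arrays, except Irradiated 5 on the dimmer probe, and the groups therefore overlapped. The differences were −0.25 (SE 0.14) and −0.27 (SE 0.17). Without Irradiated 1 the brighter probe gave −0.36.

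Foxa3, known best from hepatocytes and goblet cells, was dim and was high on 1 control array. Its log2 normalized intensity was 5.08, 8.71, 3.74 and 5.38 on the control arrays and 3.47, 4.61, 4.92, 3.66 and 4.94 on the irradiated arrays. It was well above background on 3 of 4 control arrays and 3 of 5 irradiated arrays. The groups overlapped, and the difference of −1.41 (SE 0.85) rested on Control 2, since it was −0.41 without that array. Leaving out any of the 9 arrays kept the difference between −2.07 and −0.41.

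Nkx2-1, the factor that specifies lung epithelium, was carried by a single probe printed on 10 spots of each array. Its log2 normalized intensity was 12.49, 13.21, 12.92 and 13.00 on the control arrays and 12.92, 12.35, 12.75, 12.79 and 12.87 on the irradiated arrays. The lowest and the second lowest value came from Irradiated 2 and Control 1, so the groups overlapped widely. The difference was −0.17 (SE 0.16), and leaving out any of the arrays kept it between −0.31 and −0.07. Nkx2-1 therefore stayed well detected on all 9 arrays, and its difference was of the size of its error.

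Gata6 is an endoderm factor that is active in alveolar epithelium, and endothelium and smooth muscle also express it. It was at 12.15, 11.99, 12.08 and 12.39 on the control arrays and at 12.12, 11.87, 11.70, 11.86 and 11.96 on the irradiated arrays. Irradiated 1 lay among the controls, and the remaining irradiated arrays lay below all of them. The difference was −0.25 (SE 0.11), and it was −0.31 without Irradiated 1. Of the smooth muscle list 10 of 10 genes had a difference below 0, and of the endothelium list 8 of 12. The part of these cells in the difference of Gata6 was not tested.

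Sox2, a factor of airway progenitors, was at 9.14, 9.92, 9.22 and 9.58 on the control arrays and at 9.05, 8.81, 9.36, 8.95 and 9.39 on the irradiated arrays. Irradiated 3 and Irradiated 5 lay within the control range, and the other irradiated arrays lay below it. The difference was −0.35 (SE 0.19), and it was −0.20 without Control 2, the array with the highest value. All 3 of Nkx2-1, Gata6 and Sox2 were well above background on every array.

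Seen side by side, 7 of the 8 members had a difference below 0, whereas 48.1% of all genes did, and Hnf4g and Foxa3 were among the 7 with values near the floor. The 7 members other than Hnf4a ranged from −1.41 to −0.17, and Hnf4a was at 3.88. Without these dim genes the order was Hnf4a, then Nkx2-1, Foxa2, Gata6, Sox2 and Foxa1. The steps between neighbors below Hnf4a were smaller than the larger SE of the genes compared. None of the members changed sign in any of the 152 recomputed differences with another setting or with 1 array left out. In bulk tissue, fewer cells of a type and less RNA per cell cannot be told apart, and this holds for each of these factors, most of which are restricted to epithelium.

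**Figure D2:**
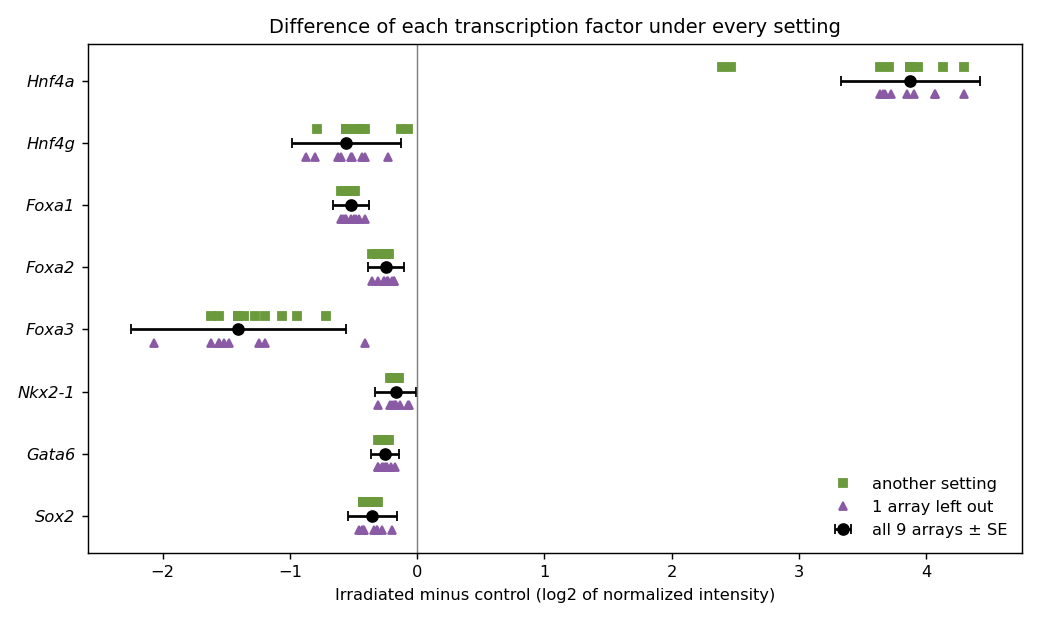
The difference of each gene, irradiated minus control, on the log2 scale, with all 9 arrays (black, ± SE), with each array left out in turn (triangles) and under the other settings (squares). Hnf4a lies between 2.40 and 4.30, and the other 7 genes stay below 0 throughout.

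The epithelial markers of the lung were looked at to see whether the lung identity of the samples moved with Hnf4a. Of 14 genes common to epithelium none passed the threshold, with a median difference of 0.12 and a mean level of −0.17 to 0.088 in the Control group and of −0.02 to 0.34 in the Irradiated group, relative to the controls. Of 15 type II cell genes, several of which are NKX2-1 targets, none passed, with a median of −0.04, a level of −0.21 to 0.15 in the Control group and of −0.26 to 0.19 in the Irradiated group. This median turned to 0.019 without Control 1 or without Control 4, and to 0.018 without Irradiated 3. Sftpc, the surfactant protein that defines type II cells, was at 19.40 ± 0.04 on both groups of arrays. The club and ciliated cell list had a median of −0.20 with no gene of 12 past the threshold, and its level was −0.19 to 0.14 in the Control group and −1.39 to −0.23 in the Irradiated group. Scgb1a1, the club cell secretoglobin, was at 19.17 and 19.14 on average, and both genes are close to the top of the intensity scale. Of the 12 club and ciliated genes 10 had a difference below 0, among them Bpifa1 (−2.69, SE 1.06), Reg3g (−1.34, SE 0.92) and Scgb3a1 (−1.30, SE 0.66), and Cyp2f2 had all irradiated arrays below all control arrays. Irradiated 1 was at 10.09 for Bpifa1, 10.21 for Reg3g and 13.24 for Scgb3a1. For these genes the other irradiated arrays were at 14.52 to 15.58, 14.33 to 15.19 and 16.23 to 16.90. The control means of Bpifa1, Reg3g and Scgb3a1 were 16.86, 15.22 and 17.18, so the other irradiated arrays lay below them as well. Irradiated 1 was the lowest array for all 3 genes, and their differences without it are not given here. The part of cell composition in the differences of the members was not tested.

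The deviations of the members from their group means were compared across the 9 arrays, as a description, because all genes were read from the same few arrays. Among Foxa1, Foxa2, Gata6, Nkx2-1 and Sox2, 9 of the 10 pairs had a correlation above 0. The highest was 0.77, between Foxa1 and Gata6, and the lowest was −0.17, between Gata6 and Sox2. Foxa1 and Foxa2 were at 0.71, Nkx2-1 and Sox2 at 0.75, and Nkx2-1 and Foxa2 at 0.69. Hnf4a was between −0.43, with Foxa2, and 0.51, with Hnf4g, so within the groups it did not follow the lung factors closely. Over the 9 arrays without removal of the group means, all 7 correlations of Hnf4a with another member were below 0, which is also what opposite group differences give.

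**Figure D3:**
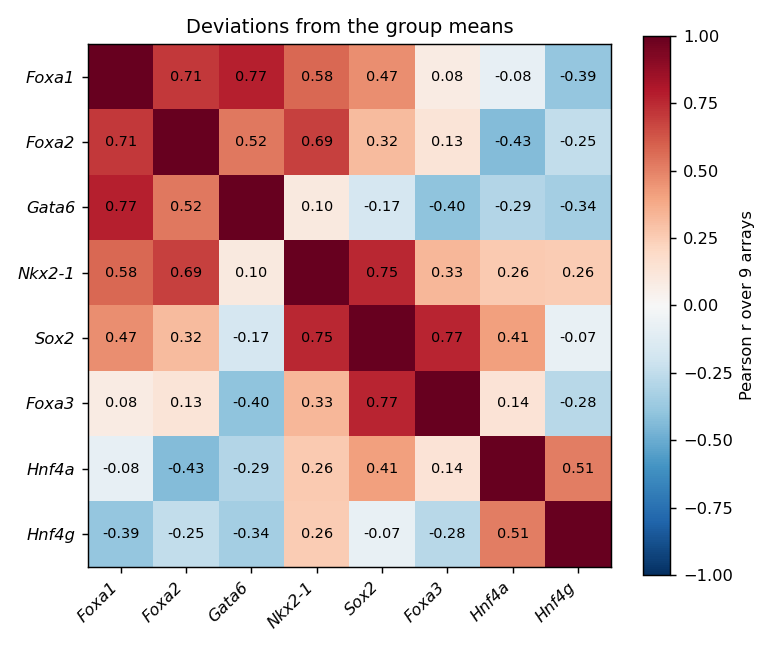
Pearson correlations over 9 arrays between the deviations of 2 genes from their group means, from −1 (blue) to 1 (red). The block of Foxa1, Foxa2, Gata6, Nkx2-1 and Sox2 is mostly positive, up to 0.77, while the values of Hnf4a lie between −0.43 and 0.51.

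The genes most like Hnf4a over the 9 arrays, by Pearson correlation of log2 intensity among 16269 genes, were Poln (0.98), Krt20 (0.97), Vsig1 (0.97), Phlda1 (0.97) and Coprs (0.97). Krt20 encodes a keratin of intestinal and gastric surface epithelium, Vsig1 a junctional protein of gastric epithelium, and Poln a DNA polymerase. Such a ranking favors genes with the same group difference. Krt20 was at 4.93, 4.59, 4.53 and 5.09 on the control arrays and at 6.22, 6.65, 8.83, 9.51 and 9.45 on the irradiated arrays. Like Hnf4a it was lowest of the irradiated group on Irradiated 1 and Irradiated 2 and high on the others, and its deviations from the group means had a correlation of 0.92 with those of Hnf4a, which is partly what placed it in this ranking. The same correlation was 0.91 for Vil1, 0.20 for Nr5a2 and −0.40 for Cdh17, which are genes of gut epithelium as well. Its difference was 3.35 (SE 0.69), with an adjusted p of 0.088 by limma, which missed the threshold.

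Vsig1 was the gene of the stomach list that passed the threshold. It was at 5.20, 5.39, 4.88 and 5.10 on the control arrays and at 6.40, 6.50, 7.59, 7.21 and 7.81 on the irradiated arrays. All irradiated arrays lay above all control arrays. The difference was 1.96 (SE 0.32), with a Benjamini-Hochberg adjusted p of 0.042 by limma, and Vsig1 was well above background on 3 of 4 control and 5 of 5 irradiated arrays. With 1 array left out, it passed the threshold in 1 of 9 cases, without Irradiated 1 (adjusted p 0.018 by limma), and the adjusted p was 0.071 to 0.145 in the others. The difference was 1.04 with normexp, and the adjusted p was then 0.060.

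The genes most like Nkx2-1 were Cstf2t (0.97), Nono (0.96), Thumpd1 (0.96), Dync2h1 (0.95) and Oas1c (0.95), and their differences between the groups were −0.15 to −0.035. For Sox2, looked at after the values were seen, the closest gene was Lrrc46 (0.98), followed by Odf3b, 1600029I14Rik and Dnali1, a dynein light chain of motile cilia. For Gata6, Slc34a2, the phosphate transporter of type II cells, was among the 5 closest (0.95), with a difference of −0.34 (SE 0.14).

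**Figure D4:**
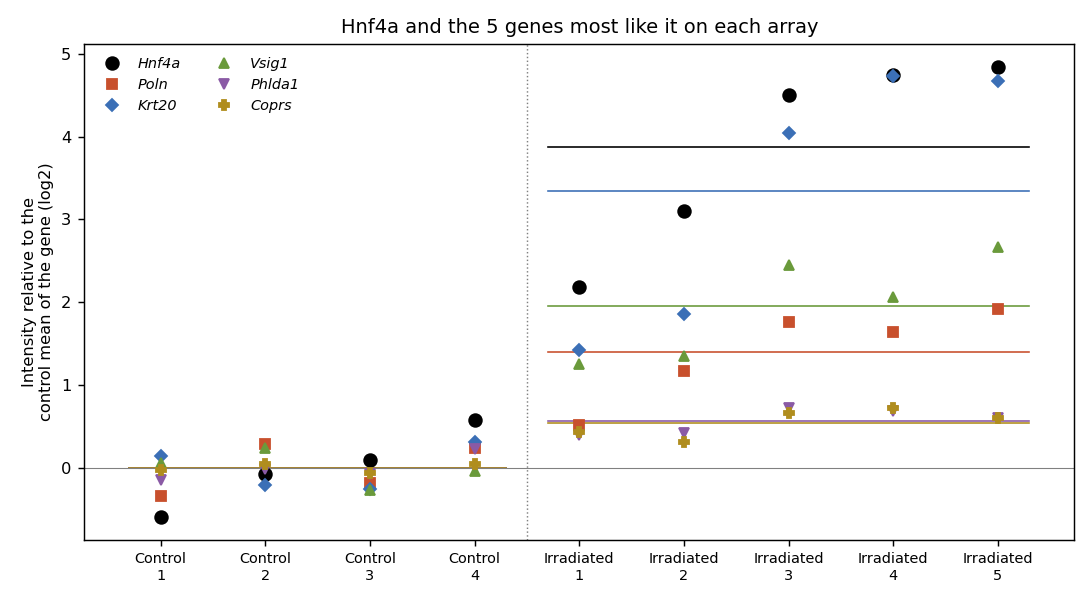
The log2 intensity of Hnf4a and of the 5 genes most like it on each array, relative to the control mean of the same gene. Lines are group means. Krt20 follows Hnf4a with a low level on Irradiated 1 and Irradiated 2.

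The other genes of the endoderm network were taken from lists. Of 24 other endoderm and lung transcription factors, none passed the threshold in either direction, 16 had a difference below 0, and the median was −0.21, against 0.0085 over all genes. The brightest of them on the control arrays were Hopx, a factor of type I cells, with a difference of 0.083 (SE 0.11), and Foxp1, a forkhead repressor, with −0.43 (SE 0.09, adjusted p 0.091 by limma). Foxp1, Ehf (−0.60) and Klf5 (−0.37) had all irradiated arrays below all control arrays, 3 of 24 against 1.76% of all genes, and the other probes of Foxp1 and Ehf gave −0.43, −0.55 and −0.55. Of the factors that specify intestine and pancreas, Cdx2 was not well above background on any array. Cdx1 had a difference of 0.21 (SE 0.20) and was well above background on 3 control and 4 irradiated arrays. Pdx1 had −0.24 (SE 0.54) and was well above background on only 1 array of each group.

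Of 12 liver-enriched factors and nuclear receptors of the HNF4A network, none passed the threshold and the median was −0.12. In the deposited table this median was 0.0056. Cebpa and Hhex, the brightest on the control arrays, had differences of −0.27 (SE 0.21) and −0.22 (SE 0.14). Nr5a2, singled out after its values were seen, had all irradiated arrays above all control arrays, 1 of 12 against 3.4% of all genes. Nr5a2, a nuclear receptor of liver and gut, had a difference of 1.09 (SE 0.26, adjusted p 0.15 by limma) on its brighter probe and of 0.41 (SE 0.28) on the other.

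Of 26 hepatocyte genes known to depend on HNF4A, 15 had a difference above 0 and 11 below, with a median of 0.085, and 1 of 26 passed the threshold, in the lower direction, against 0.152% of all genes. The median fell below 0 in 4 of 21 recomputations, among them scaling to the 75th percentile (−0.086), the deposited table (−0.11) and the fit without Irradiated 2 (−0.13). The called gene was Asgr1, a subunit of the asialoglycoprotein receptor, which was at 10.04, 10.55, 10.21 and 10.60 on the control arrays and at 8.98, 7.60, 7.10, 7.63 and 8.33 on the irradiated arrays. Its difference was −2.42 (SE 0.34, adjusted p 0.031 by limma), and its second probe gave −3.09 (SE 0.68). With 1 array left out it passed in 1 of 9 cases, without Irradiated 1 (adjusted p 0.007 by limma), with 0.058 to 0.105 in the others. The mean level of the list was −0.10 to 0.069 in the Control group and −0.39 to 0.49 in the Irradiated group. Alb, the main hepatocyte transcript, was at 4.20 to 6.88 on the controls and at 5.37 to 7.89 after irradiation, with overlap, and Apoa1 was well above background on no control and 2 irradiated arrays. The part of liver RNA in the difference of Hnf4a was not tested beyond these values. Trf and Apoa2, the brightest of the list, had differences of 0.26 (SE 0.12) and −0.17 (SE 0.32). The dimmer second probe of Apoa2, well above background on every array, went the other way, with 0.98 (SE 0.28, adjusted p 0.23 by limma). The 3 fibrinogen chains differed. Fgg was at 7.80 to 9.18 on the control arrays, at 6.35 on Irradiated 1 and at 10.99 to 13.11 on the others, whereas Fgb was well above background on 1 array of each group. The 2 probes of Fga disagreed, with 0.61 (SE 0.59) on the brighter and 3.51 (SE 0.51, adjusted p 0.033 by limma) on the other, which was well above background on 1 control array and 4 irradiated arrays.

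Of 15 measured genes of the gastric list, 1 passed the threshold as higher, which was Vsig1, against 0.264% of all genes. None passed it as lower, and 7 had a difference above 0 and 8 below. The median was −0.03, but it was above 0 in 12 of 21 recomputations, with a range of −0.19 to 0.26. Its brightest genes had differences below 0, with Tff2, a trefoil peptide, at −1.61 (SE 0.49, adjusted p 0.26 by limma) and Lgals4 at −0.51 (SE 0.15). Tff2 had all irradiated arrays below all control arrays, 1 of 15 against 1.76% of all genes, as Vsig1 had them above. Anxa10 was not well above background on any control array and was so on 4 irradiated arrays, all but Irradiated 1. Of the intestinal list, none of 17 genes passed, 11 had a difference above 0 and the median was 0.21. This median turned to −0.0018 with scaling to the 75th percentile and was 0.094 with normexp. Krt20, Vil1 (1.04) and Cdh17 (1.38, well above background on 1 control and 2 irradiated arrays) had all irradiated arrays above all control arrays, 3 of 17 against 3.4% of all genes. The brightest, Gpa33 and Fabp1, had −0.24 (SE 0.31) and −1.85 (SE 0.81). Of 14 proximal tubule genes and 12 acinar genes none passed, with medians of 0.22 and −0.28, and their brightest genes were Slc7a7 (0.22), Dpep1 (−0.16), Cel (−0.35) and Ctrb1 (−0.21). Over all 17 lists, 2 of 233 different genes passed the threshold, 0.858%, against 0.416% of all genes. Over the same genes, 6 (2.58%) had all irradiated arrays above all control arrays, against 3.4% of all genes, and 9 (3.86%) had them below, against 1.76%.

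**Figure D5:**
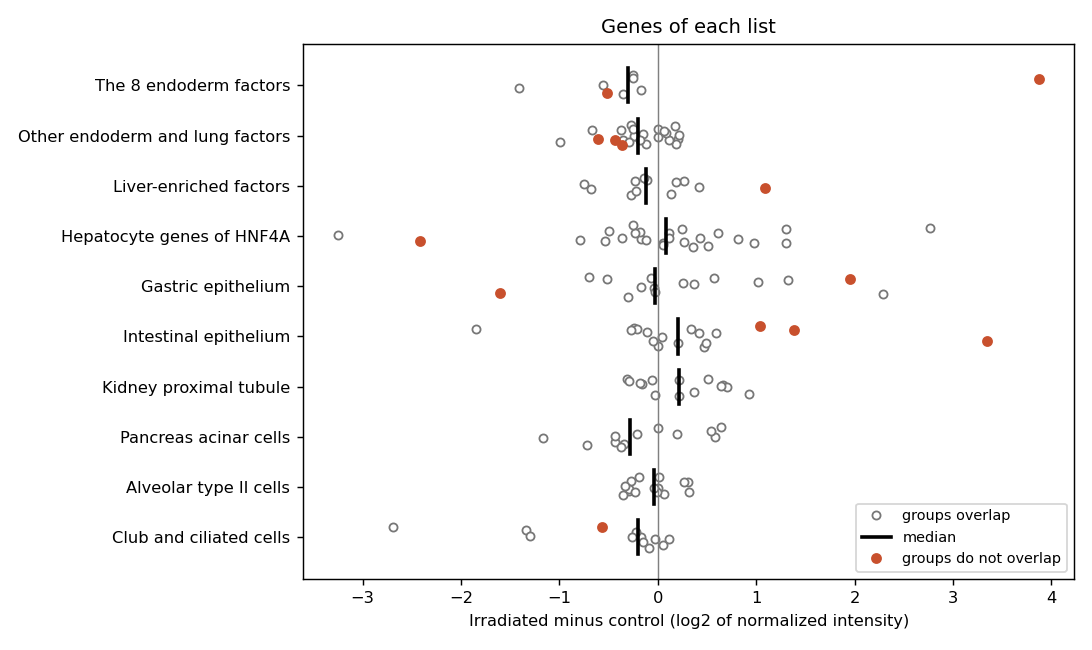
The difference of each gene, irradiated minus control, on the log2 scale, for the 8 endoderm factors and 9 of the lists, with the median as a bar. Filled points are genes whose groups do not overlap. Hnf4a at 3.88 and Krt20 at 3.35 stand to the right of lists whose medians lie between −0.28 and 0.22.

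Cells of other origin were checked by their markers. Of the 7 remaining lists no gene passed the threshold. The medians were 0.19 for type I cells, −0.12 for leukocytes, −0.14 for endothelium, −0.51 for basal and squamous epithelium, −0.44 for smooth muscle, −1.07 for cardiac muscle and −1.40 for skeletal muscle. Without Control 3 the skeletal median turned to 0.083 and the basal and squamous median was −0.0049, and the cardiac median was −0.20 without Irradiated 1. The difference of Hnf4a was 3.91 and 4.30 without the same arrays. The leukocyte list was mixed, with 8 of 13 genes below 0 and Itgax, a marker of alveolar macrophages and dendritic cells, at 0.70 (SE 0.17, adjusted p 0.15 by limma). The leukocyte median turned to 0.029 without Irradiated 1 and with array pairs as a block. The brightest genes of these lists were Emp2 (0.20) and Hopx in type I cells, S100a9 (−0.80) and Itgam (−0.51) in leukocytes, Egfl7 (−0.012) and Vwf (−0.24) in endothelium, and Trp63 (−0.18) and Perp (−0.59) in basal epithelium. In muscle they were Tagln (−0.35), Acta2 (−0.61), Myh6 (−1.97), Actc1 (−0.78), Myh8 (−1.59) and Tnni2 (−1.12). Those of the other lung lists were Sftpb (−0.19), Cyp2f2 (−0.56), Krt18 (0.14) and Krt19 (−0.01).

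Groups of arrays that shared a scan were looked for, because the files name no slide. Pairs of 1 control and 1 irradiated array were alike in local background (for example 24 and 24 units for Control 4 and Irradiated 5) and in their deviations from the group means, with correlations of 0.20 to 0.46. Within these 4 pairs the irradiated minus the control array was 3.70, 4.58, 4.65 and 4.27 for Hnf4a. It was −0.63, −0.61, −0.49 and −0.66 for Foxa1, −0.25, −0.70, −0.27 and −0.21 for Foxa2, and −0.47, −3.79, −0.076 and −0.44 for Foxa3. For Gata6 it was −0.28, −0.29, −0.23 and −0.43, for Nkx2-1 −0.14, −0.46, −0.13 and −0.14, and for Sox2 −0.34, −0.56, −0.26 and −0.19. Hnf4a was thus higher in the irradiated array of all 4 pairs, and 6 of the other 7 members were lower in all 4. The exception was Hnf4g, which was lower in 3. The pairs were formed after the data were seen and leave out Irradiated 1. The share of all genes with 1 direction in all 4 pairs is not given here, so nothing is read from these counts.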

How the data were processed

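Total RNA of lung tissue was labeled and hybridized to Agilent mouse arrays by the authors. For each array they deposited intensity values from Feature Extraction, in the columns of the green channel although the labels name Cy5, with no normalization between arrays. A table of quantile-normalized intensity, deposited by the authors as well, was used as an alternative. Genome build and software version are not given in the sources used here.

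Processed signals were used without control spots (1377 of 44397) and outlier spots. Probes whose signal exceeded local background by a factor of 1.4 on 4 or more of the 9 arrays were kept (39302 of 39429), put on the log2 scale, quantile normalized and averaged over spots. RefSeq accessions gave symbols for 26055 probes (66.1%) through a table of GRCm38.p6, used for names only. The probe with the highest mean represented a gene. Groups were compared with limma 3.58.1 (R 4.3.3), using an intensity trend and a Benjamini-Hochberg adjusted p under 0.05, and the procedure was tested on simulated data. Precision is limited by the number of arrays.

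The members, lists and rules were chosen with earlier results of these data known. Named genes were the members, list genes past the threshold, the 2 brightest genes of each list on the control arrays and the 5 genes most like Hnf4a and Nkx2-1 among those well above background on at least 5 arrays. Other list genes, and the genes most like Sox2 and Gata6, were named after their values were seen. The lists held 24 endoderm and lung factors, 12 liver factors, 26 hepatocyte genes and marker genes of stomach, intestine, kidney, pancreas, lung, blood, vessel and muscle cells, of which Muc6, Muc2, Rtkn2, Scgb3a2 and Cd68 were not found on the arrays through the table. Sucrase-isomaltase was entered as Sis, because its older symbol is shared with another gene.

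Alternatives were normexp with an offset of 50 on the median signal, scaling to the 75th percentile, a background filter on all 9 arrays, no such filter, the deposited table, leaving out each array, a replicate block, no intensity trend, array weights, the mean of all probes and, added after the data were seen, array pairs as a block. Slides and scan settings were not used because the files used here do not name them. The shared replicate numbers did not pair the arrays. Some items are not reported here.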

Additional observations from a re-analysis of the deposited data

Results flagged for a closer look

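With 50 groups of 4 or 5 arrays examined for a single array far from the others, 4 were found, and chance gives about 1 in 20. All 4 concern lists of other cell types, given as the mean log2 level relative to the control arrays, and none concerns an endoderm factor. Type I cell genes were at −0.27 in Control 2, against 0.08 to 0.10 in the other control arrays. Club and ciliated cell genes were at −1.39 in Irradiated 1, against −0.50 to −0.23 in the other irradiated arrays. Cardiac muscle genes were at −4.97 in Irradiated 1, against −0.63 to 0.17. Skeletal muscle genes were at 3.86 in Control 3, against −1.55 to −1.12. Foxa3 at 8.71 in Control 2 was not beyond this criterion. The part of these arrays in the results was not tested beyond leaving each out.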

How the results depend on the processing

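All 152 recomputed differences of the 8 endoderm factors kept their sign, and 150 moved by less than the spread between arrays. Hnf4a moved to 2.40 with normexp and to 2.47 in the deposited table, where Hnf4g was empty on 3 arrays that were then dropped. With each array left out, Hnf4a was 3.63 to 4.30, Foxa1 −0.60 to −0.41, Foxa2 −0.36 to −0.18, Gata6 −0.31 to −0.17 and Sox2 −0.46 to −0.20. Hnf4a was not past the threshold in the deposited table, without an intensity trend, with the replicate block or without any 1 array other than Irradiated 1. Hnf4g has no value under the filter on all 9 arrays.

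The count of probes past the threshold was 131 by limma. It was 197 with the filter on all 9 arrays, 44 in the deposited table and 44 without an intensity trend. With array pairs as a block, which leaves out Irradiated 1, it was 1099, and it was 2898 with these pairs as a random block. The count was 5 to 476 with 1 array left out, where each of the 9 arrays moved it by over 1.5 times. With the replicate block, which leaves out Irradiated 5, 1 probe passed (3267 at an unadjusted p under 0.05). Hnf4a was then 3.63, Vsig1 1.78 and Asgr1 −2.52, and none of these genes was past the threshold. The same-numbered arrays had deviation correlations of −0.17 to 0.06, so they share only a number. Vsig1 also lost its call with normexp (1.04), scaling to the 75th percentile (1.72), the deposited table (1.14) and no trend, and Asgr1 with no trend.

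Of 357 recomputed list medians, 348 moved by less than the spread. Those that moved more were the intestinal list (−0.0018 with the 75th percentile, 0.38 with the filter on all 9 arrays), the kidney list (0.092 with normexp, 0.098 with the 75th percentile, 0.083 in the deposited table and 0.078 with only genes detected on every array), the liver factors (from −0.12 to 0.0056 in the deposited table), the hepatocyte genes (−0.17 with only genes detected on every array) and the other endoderm factors (−0.23 to −0.11 with 1 array left out). The cause was not tested. Dim probes such as Hnf4g and Foxa3, and the control level of Hnf4a, are limited by signal over background.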
